A study of Saccharomyces cerevisiae SK1 with 8 samples.

Results

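The late ergosterol synthesis enzymes here are 10 genes of the segment from squalene to ergosterol. They were taken by systematic name from the 6663 genes counted: ERG1, ERG7, ERG11, ERG24, ERG25, ERG6, ERG2, ERG3, ERG5 and ERG4, in pathway order. ERG26 and ERG27, which also act in this segment, are outside the 10. All 10 were present in each of the 8 libraries and passed the filter on low counts, as did 5932 genes in all. Their transcripts made up 0.876% to 0.964% of the reads counted in a library. By the main test, edgeR, none of the 10 passed in any of 7 comparisons, where 0.0169% to 21.2% of all genes tested passed. DESeq2 called 1 member, ERG11, lower in the pus1 deletion than in wild type averaged over treatments (adjusted p = 0.0393). It called 23.3% of all genes there. The intervals given below are for single genes, from 2 libraries a group, and were not adjusted for the number of values. With a library left out, a member's log2 fold change moved by at most 0.14.

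Ergosterol is the sterol of fungal membranes, where it has the place that cholesterol has in animals. The early enzymes build squalene from acetyl-CoA by way of mevalonate, and the late enzymes oxidise it, close the ring system, strip methyl groups and shift double bonds. Several late steps use molecular oxygen, haem or iron, and the transcription factors Upc2 and Ecm22 switch many of the genes on when sterols run low, by binding a short DNA motif called the sterol regulatory element. Several of the enzymes are targets of azole, allylamine and morpholine antifungals.

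Polyadenylated RNA was sequenced from budding yeast of the SK1 background, diploid (MATa/alpha) and growing in the rich medium YEPD, collected 3 h after dilution. There were 4 groups with 2 libraries each, which the titles call biological replicates; the labels do not say more of how they were kept apart. The groups were the pus1 deletion (pus1::KanMX) with anhydrotetracycline (aTC, the inducer), the pus1 deletion with the solvent DMSO, wild type (WT) with aTC, and WT with DMSO. Strains of all 4 groups carried a truncated Pus1 with a 3V5 tag under the pTetO7.1 promoter at his3, and at ura3 a TetR-Tup1 fusion under pRNR2 with TetR under pTetO7.1. WT therefore means an intact PUS1 gene beside the construct, and no group without the construct was used. Pus1 is a pseudouridine synthase, an enzyme that modifies uridines in RNA. The comparisons ask whether late ergosterol transcripts followed induction of its truncated form or the loss of PUS1.

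Total counts ran from 51331492 to 61960514 per library, and log2 CPM (counts per 1000000 reads after TMM scaling of the libraries) correlated at 0.997 to 0.999 between replicates. PUS1 counts followed the labels: 42829 and 51740 reads in the deletion with aTC, 2 and 4 in the deletion with DMSO, 68028 and 56790 in WT with aTC, and 11004 and 12139 in WT with DMSO. Of 14 genes that diploids repress, 11 stayed at or under 10 CPM in every library. The 14 summed to 98.8 and 93.9 CPM in the deletion with aTC, 91.5 and 94.4 in the deletion with DMSO, 77.8 and 85.2 in WT with aTC, and 83.7 and 80.6 in WT with DMSO. Averaged over treatments, 13 of the 14 were positive for the deletion against WT, while 51.1% of all genes tested were positive. There edgeR called 3 higher, STE4, STE5 and RME1, against 21.2% of all genes tested, and DESeq2 called 1 higher, against 23.3%. RME1 was low, with group means from 0.425 CPM (WT with aTC) to 0.819 CPM (deletion with DMSO). The part of these genes in the comparisons of deletion with WT was not tested. RNA came from whole cultures, so fewer cells and less RNA per cell cannot be told apart.

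The genes lie on 5 chromosomes, in the coordinates of the deposited files, whose genome build is not named. ERG4 (YGL012W, 481393 to 482814, plus strand), ERG25 (YGR060W, 607786 to 608715, plus strand) and ERG1 (YGR175C, 835805 to 837295, minus strand) are on chromosome 7. ERG11 (YHR007C, 109210 to 110802, minus strand) and ERG7 (YHR072W, 225354 to 227549, plus strand) are on chromosome 8, and ERG3 (YLR056W, 234723 to 235820, plus strand) is on chromosome 12. ERG6 (YML008C, 232586 to 233737, minus strand), ERG5 (YMR015C, 281985 to 283601, minus strand) and ERG2 (YMR202W, 644258 to 644926, plus strand) are on chromosome 13, and ERG24 (YNL280C, 100822 to 102138, minus strand) is on chromosome 14. Each gene has the same length in the files and in the S288C assembly R64. ERG7 shares 133 bases with YHR071C-A, where reads are not assigned to either gene, so reads in that stretch are missing from its count. No other member overlaps a listed gene.

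The sterol regulatory element is the motif that Upc2 and Ecm22 bind, so its matches in these promoters are shown here. The letters TCGTATA, or TATACGA on the other strand, were searched in the 500 bases before each start codon of R64, the S288C reference of RefSeq. SK1, the strain of this study, may differ from it in these stretches. The motif was present before 5 of the 10 genes (50% of them) and before 420 of 6000 protein-coding genes (7%). Each match is shown 5′ to 3′ on the gene's strand, with the motif in capitals.
ERG1, chr7:848787-848816, minus strand: gtagcgggcctTCGTATAgctcggccgagc
ERG25, chr7:610070-610099, plus strand: actgcctccctTCGTATAcgggacacagag
ERG25, chr7:610090-610119, plus strand: ggacacagagaTCGTATAcggtaaacgact
ERG6, chr13:253404-253433, minus strand: agccccgatctTCGTATAtggtacctcgtt
ERG2, chr13:667341-667370, plus strand: aaccacggcccTCGTATAagccgcaaggaa
ERG3, chr12:253524-253553, plus strand: caaccggggtgTATACGAggccgatggctg
ERG3, chr12:253564-253593, plus strand: aaaattcaggcTCGTATAagtggcacaata

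ERG25 and ERG3 have a pair of matches each, and the first match before ERG3 reads on the opposite strand. The match before ERG2 is the nearest to its start codon, beginning 185 bases before it, and that of ERG25 at 483 bases is the farthest. ERG7, ERG11, ERG24, ERG5 and ERG4 have none of these 7 letters in the window, which says only that the exact letters are not there. With the shorter core CGTATA, 6 of the 10 genes had a match, ERG5 being the one added, against 24.1% of all promoters. Of the 10 early genes 2 had the 7-letter motif, and 6 had the core. The letters ATTGTT, a core of the site of the hypoxic repressor Rox1, were present before 5 of the 10 late genes against 48.9% of all promoters, and the Hap1 motif before none against 0.35%. These are matches of letters, not sites shown to be bound.

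**Figure D1:**
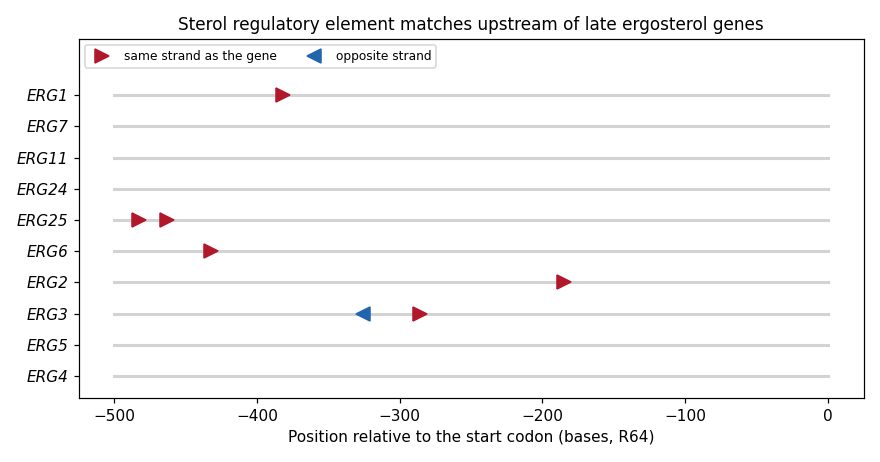
Positions of the 7-letter sterol regulatory element in the 500 bases before the start codon (x axis, bases) of the 10 late ergosterol genes (rows, pathway order). Right-pointing triangles read on the gene's strand and the left-pointing one on the opposite strand; 5 genes carry 7 matches, from 483 to 185 bases before the start codon.

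Per length of gene, the late enzymes were among the more abundant transcripts in these cells, and most of their order held in every library. ERG2, a sterol isomerase, averaged 1661 CPM per kb over the 8 libraries (SD 62.1), and ERG3, a desaturase, 1599 (SD 103). Their ranges overlapped, with ERG2 above ERG3 in 6 of 8 libraries. ERG25, the C-4 methyl oxidase, followed at 1150.2 CPM per kb (SD 80.2) and ERG11, the lanosterol demethylase, at 861 (SD 72.2), and each of these levels stood apart from its neighbours in all 8 libraries. ERG4, the last reductase, was at 658 CPM per kb (SD 39.5) and ERG5, the C-22 desaturase, at 584 (SD 29.3). ERG4 was above ERG5 within each of the 8 libraries, although their ranges over libraries overlap. ERG6, the C-24 methyltransferase, was at 485 (SD 23.7), ERG1, squalene epoxidase, at 408 (SD 31.8), ERG24, the C-14 reductase, at 342 (SD 13.6) and ERG7, lanosterol synthase, at 165 (SD 10.2), each separated from the next in all libraries. Among the 5932 genes tested, ERG2 ranked 69 in mean CPM per kb and ERG7 ranked 923. The order does not follow the pathway: the first enzymes, ERG1 and ERG7, are near the bottom. The most abundant transcripts are those of ERG2 and ERG3, numbers 7 and 8 in the list of members.

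**Figure D2:**
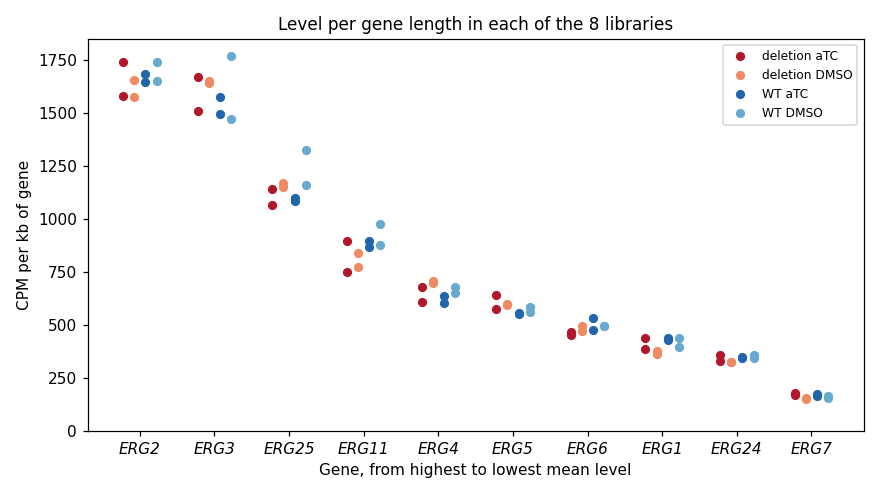
Level of each late ergosterol gene in CPM per kb of gene (y axis), ordered by mean, with 1 point per library coloured by group. Differences between genes, from 1661 for ERG2 to 165 for ERG7, are far wider than those between groups of one gene.

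The members' summed level gives the pathway segment as a whole. It was 9531 and 8627 CPM in the deletion with aTC, 9170.5 and 9023 in the deletion with DMSO, 9021 and 9110.0 in WT with aTC, and 9876 and 8985 in WT with DMSO. The highest and the second lowest of the 8 sums are the replicates of WT with DMSO, and the groups overlap. Within single genes the highest library exceeded the lowest by 1.10-fold (ERG2) to 1.30-fold (ERG11). Below, groups are described as overlapping or not from 2 libraries each. The share of all genes whose groups do not overlap was not computed, so a lack of overlap describes the values and is not a result.

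The pathway enters its late segment with ERG1, which adds oxygen to squalene, and ERG7, which folds the product into lanosterol, the first sterol. ERG1 had 652 and 577 CPM in the deletion with aTC, 541 and 559 in the deletion with DMSO, 640.2 and 655 in WT with aTC, and 656 and 589 in WT with DMSO. The deletion with DMSO was the lowest group and did not overlap any other. For ERG1 the log2 fold change with aTC was 0.16 in the deletion (SE 0.0707, unadjusted p = 0.0446, edgeR adjusted p = 0.208) and 0.06 in WT (edgeR adjusted p = 0.997), and the deletion against WT gave -0.18 in DMSO (SE 0.0707, unadjusted p = 0.0285, edgeR adjusted p = 0.256) and -0.08 in aTC (edgeR adjusted p = 0.478). ERG7 had 393 and 369.7 CPM in the deletion with aTC, 332 and 341 in the deletion with DMSO, 367 and 385 in WT with aTC, and 367 and 338 in WT with DMSO. Both libraries of the deletion with aTC lay above both of the deletion with DMSO, while WT with aTC overlapped WT with DMSO. For ERG7 the aTC response was 0.18 in the deletion (SE 0.0604, unadjusted p = 0.0126, edgeR adjusted p = 0.126), the smallest adjusted p of any member there, and 0.09 in WT (edgeR adjusted p = 0.997). A fit of only the 4 deletion libraries gave ERG7 a log2 value of 0.18 and an edgeR adjusted p = 0.0440, past the threshold.

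Lanosterol is then stripped of its C-14 methyl group by ERG11, a cytochrome P450 and the azole target, and the double bond left behind is reduced by ERG24. ERG11 had 1426 and 1198 CPM in the deletion with aTC, 1340.5 and 1236 in the deletion with DMSO, 1432 and 1384 in WT with aTC, and 1560.1 and 1402 in WT with DMSO. Its replicates lay far apart, by a coefficient of variation of up to 12.3% within a group, and both libraries of the deletion with DMSO were below both of WT with DMSO. For ERG11 the deletion against WT gave a log2 fold change of -0.20 in DMSO (SE 0.0848, unadjusted p = 0.0373, edgeR adjusted p = 0.274) and -0.10 in aTC (edgeR adjusted p = 0.428), and aTC gave 0.03 in the deletion and -0.07 in WT (edgeR adjusted p = 0.881 and 0.997). Averaged over treatments, ERG11 differed between deletion and WT by -0.15 (SE 0.0600, edgeR adjusted p = 0.0917), and the groups of 4 overlapped. This value passed the threshold by DESeq2 (-0.16, adjusted p = 0.0393), with a block for replicate number (edgeR adjusted p = 0.0362) and without replicate 1 of the deletion with aTC (-0.22, edgeR adjusted p = 0.0389). Without replicate 2 of the deletion with aTC, the library at 1198 CPM, it was -0.10 and did not pass. ERG24 had 472 and 436 CPM in the deletion with aTC, 426 and 430.0 in the deletion with DMSO, 454 and 457 in WT with aTC, and 472 and 454 in WT with DMSO. The deletion with DMSO again gave the lowest pair of values, with log2 fold changes for ERG24 of 0.08 for aTC in the deletion (edgeR adjusted p = 0.384) and -0.11 for the deletion in DMSO (SE 0.0555, edgeR adjusted p = 0.328).

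ERG25 begins the removal of the C-4 methyl groups, oxidising them with iron at its centre. ERG25 had 1061 and 989.9 CPM in the deletion with aTC, 1070.3 and 1089 in the deletion with DMSO, 1009 and 1025 in WT with aTC, and 1232 and 1082 in WT with DMSO. In both strains the aTC pair lay below the DMSO pair. The log2 fold change of ERG25 with aTC was -0.07 in the deletion (edgeR adjusted p = 0.537), -0.19 in WT (SE 0.0674, unadjusted p = 0.0187, edgeR adjusted p = 0.756) and -0.13 averaged over genotypes (SE 0.0477, edgeR adjusted p = 0.193). Of the WT libraries with DMSO, replicate 1 stood highest of all 8 at 1232 CPM and replicate 2 was at 1082, nearer the rest.

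The remaining enzymes finish the side chain and ring. ERG6 adds a methyl group to the side chain, ERG2 and ERG3 move and add double bonds in the ring, ERG5, the other cytochrome P450 of the pathway, desaturates the side chain, and ERG4 makes the last reduction to ergosterol. ERG6 had 524 and 541 CPM in the deletion with aTC, 569.8 and 542 in the deletion with DMSO, 613 and 547 in WT with aTC, and 569 and 568 in WT with DMSO. The deletion with aTC was the lowest group and did not overlap the others. For ERG6 the deletion against WT in aTC gave -0.12 (SE 0.0624, edgeR adjusted p = 0.193), which became -0.20 and passed the threshold without replicate 2 of WT with aTC (edgeR adjusted p = 0.0496), and became -0.04 without replicate 1 of WT with aTC, the library at 613 CPM. ERG2 had 1165 and 1059 CPM in the deletion with aTC, 1109 and 1055 in the deletion with DMSO, 1103 and 1128 in WT with aTC, and 1165 and 1106 in WT with DMSO. No pair of groups was separate, and ERG2 had log2 fold changes of -0.07 to 0.04 in the pairwise comparisons.

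ERG3 had 1837 and 1658 CPM in the deletion with aTC, 1814 and 1805 in the deletion with DMSO, 1642 and 1729.6 in WT with aTC, and 1944 and 1617 in WT with DMSO. The replicates of WT with DMSO were both the highest and the lowest of the 8 libraries for ERG3, and its pairwise log2 fold changes were between -0.08 and 0.05. ERG5 had 1037 and 933 CPM in the deletion with aTC, 962 and 972 in the deletion with DMSO, 903 and 895 in WT with aTC, and 945 and 904 in WT with DMSO. The deletion was above WT within each treatment, with no overlap. For ERG5 the log2 difference was 0.13 in aTC (SE 0.0606, unadjusted p = 0.0508, edgeR adjusted p = 0.155), 0.07 in DMSO (edgeR adjusted p = 0.597) and 0.10 averaged over treatments (SE 0.0428, edgeR adjusted p = 0.119). The averaged value of ERG5 passed the threshold without replicate 2 of the deletion with aTC (0.13, edgeR adjusted p = 0.039), and was 0.06 without replicate 1 of that group. It also passed with upper-quartile scaling (0.13, edgeR adjusted p = 0.0434), which moved the median of all genes by 0.03 in this comparison, as much as it moved ERG5. ERG4 had 965 and 866 CPM in the deletion with aTC, 1006 and 993 in the deletion with DMSO, 858 and 905 in WT with aTC, and 966 and 925 in WT with DMSO. In both strains the aTC pair lay below the DMSO pair, with log2 fold changes for ERG4 of -0.13 in the deletion (SE 0.0631, edgeR adjusted p = 0.255) and -0.10 in WT (SE 0.0631, edgeR adjusted p = 0.997).

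**Figure D3:**
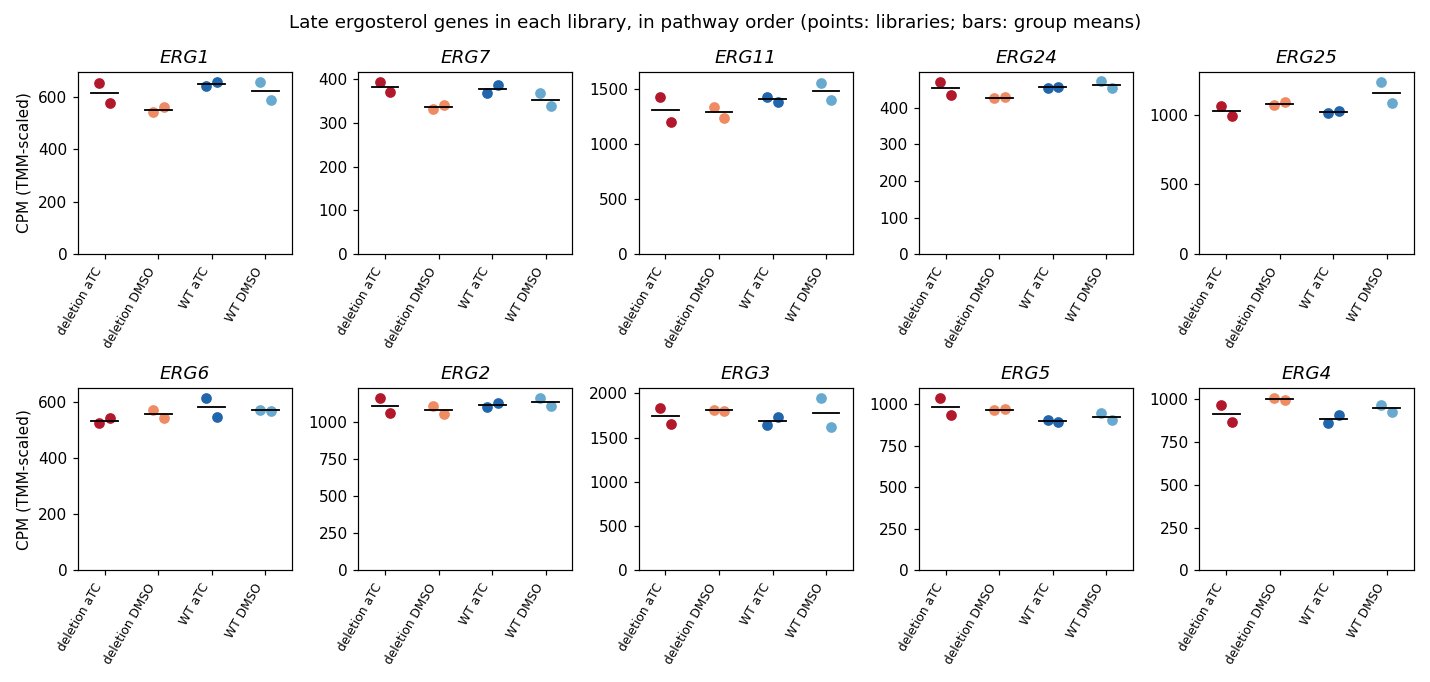
TMM-scaled CPM (y axes, from 0) of each late ergosterol gene in the 8 libraries, by group, in pathway order; points are libraries and bars are group means (n = 2). Group means differ little beside the height of the values; ERG3 in WT with DMSO shows the widest pair, 1944 and 1617.

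Induction of the isoform without native PUS1, the deletion with aTC against the deletion with DMSO, called 0 of the 10 members by edgeR, where 0.506% of all genes tested were called. At an unadjusted p under 0.05 there were 2 members, ERG1 and ERG7, both with positive values, against 22.6% of all genes, and DESeq2 called 0 against 6.69%. The members' log2 fold changes ran from -0.13 (ERG4) to 0.18 (ERG7), with a median of 0.03 against 0.004 over all genes tested. Their 95% intervals reached from 0.831-fold to 1.245-fold. Without replicate 1 of the deletion with aTC the median was -0.05 and without replicate 2 it was 0.09.

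Induction beside native PUS1, WT with aTC against WT with DMSO, called 0 members by edgeR and 0 by DESeq2, against 0.371% and 0.826% of all genes. At an unadjusted p under 0.05 there was 1 member, ERG25, with a negative value, against 4.99% of all genes. The log2 fold changes ran from -0.19 (ERG25) to 0.09 (ERG7), with a median of -0.03 against 0.01 over all genes tested, and the 95% intervals from 0.793-fold to 1.17-fold. Without replicate 2 of WT with DMSO the median was -0.06 and without replicate 1 it was 0.01.

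Loss of PUS1 with the construct uninduced, the deletion with DMSO against WT with DMSO, called 0 members by edgeR and 0 by DESeq2, against 0.219% and 1.96% of all genes. ERG1 and ERG11, both negative, were the 2 members at an unadjusted p under 0.05, against 16.5% of all genes. Of the 10 values 7 were negative, from -0.20 (ERG11), and ERG3, ERG5 and ERG4 were positive, up to 0.08 (ERG4), with a median of -0.07 against 0.002 over all genes tested. The 95% intervals reached from 0.764-fold to 1.16-fold. The median was -0.02 without replicate 1 of WT with DMSO and -0.11 without replicate 2.

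With the isoform induced in both strains, the deletion with aTC against WT with aTC, edgeR called 0 members and 13.6% of all genes, and DESeq2 called 0 members and 17.8% of all genes. The edgeR background of 808 genes was 3 genes without replicate 1 of the deletion with aTC and 1408 without replicate 2 of WT with aTC. At an unadjusted p under 0.05 there were 0 members against 32.5% of all genes. The log2 fold changes ran from -0.12 (ERG6) to 0.13 (ERG5), with a median of 0.003 against 0.005 over all genes tested, and the 95% intervals from 0.819-fold to 1.203-fold. Without replicate 1 of the deletion with aTC the median was -0.05, and without replicate 2 it was 0.05. Whether the members were called less often than other genes was not tested.

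**Figure D4:**
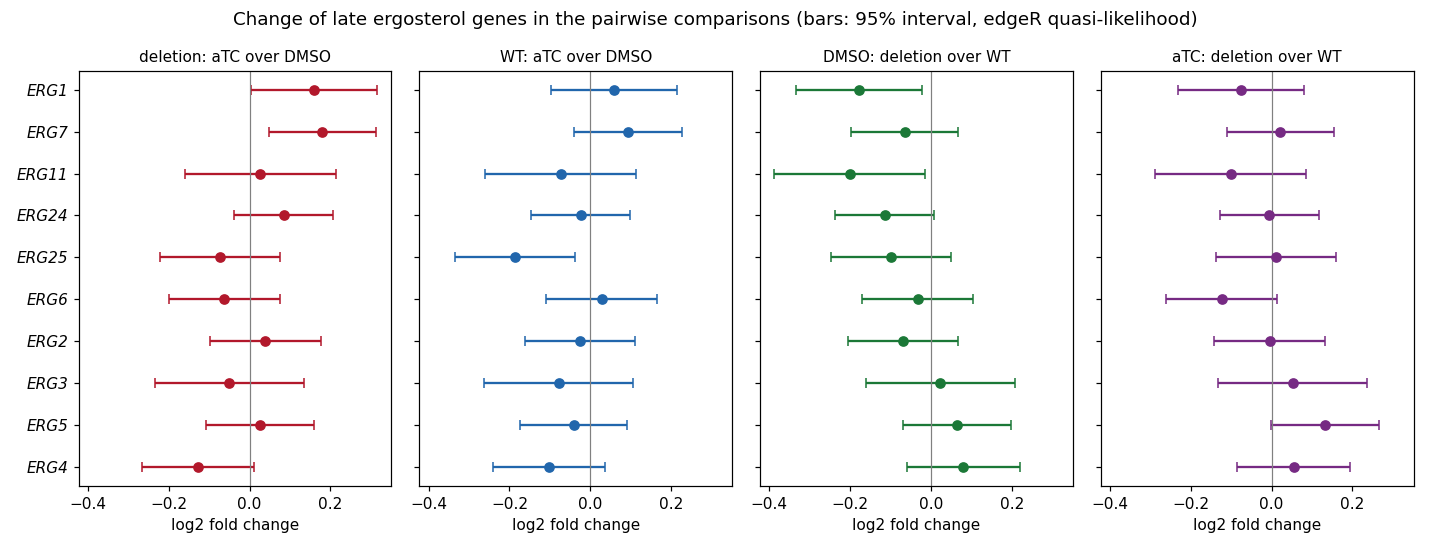
Log2 fold change (x axes) of each late ergosterol gene (rows, pathway order) in the 4 pairwise comparisons; points are edgeR estimates and bars their 95% intervals. All points lie between -0.20 and 0.18; the interval of ERG7 lies above 0 for aTC in the deletion, that of ERG25 below 0 for aTC in WT, and those of ERG1 and ERG11 below 0 for the deletion in DMSO, none of which passed adjustment over all genes.

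Comparing the aTC responses of the deletion and WT directly, the interaction called 0 members by edgeR and by DESeq2, against 0.0169% of all genes for each tool, and 0 at an unadjusted p under 0.05 against 7.23%. The difference of responses was positive for 8 of 10 members, from -0.09 (ERG6) to 0.11 (ERG25), with a median of 0.08, and for 50.8% of all genes tested. Without replicate 1 of the deletion with aTC the median was -0.01, and without replicate 2 it was 0.13. Averaged over genotypes, aTC against DMSO called 0 members by edgeR and 0 by DESeq2, against 1.31% and 3.71% of all genes. At an unadjusted p under 0.05 there were 3 members, ERG7 (0.14), ERG25 (-0.13) and ERG4 (-0.11), against 18.9% of all genes. Averaged over treatments, the deletion against WT called 0 members by edgeR against 21.2% of all genes, and 1 by DESeq2, ERG11, against 23.3%. Here ERG1 (-0.13), ERG11 (-0.15) and ERG5 (0.10) had an unadjusted p under 0.05, 3 members against 37.3% of all genes.

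The early enzymes, which make squalene and were listed beside the late ones for comparison, gave more values in one direction. In the deletion, aTC against DMSO gave positive log2 fold changes for 10 of 10 early genes, at a median of 0.13, while 51.1% of all genes tested were positive. No early gene was called by edgeR, while 5 had an unadjusted p under 0.05 with positive values, and DESeq2 called 3 higher. Of all genes tested, edgeR called 0.506% and DESeq2 6.69%, and 22.6% had an unadjusted p under 0.05. ERG13, HMG-CoA synthase, had 989 and 989.9 CPM in the deletion with aTC against 819 and 858 in the deletion with DMSO (log2 0.24, SE 0.0512, edgeR adjusted p = 0.0638). ERG9, squalene synthase, which makes the substrate of ERG1, had 525 and 503 CPM against 449 and 446 (log2 0.20, SE 0.0518, edgeR adjusted p = 0.0804). HMG1 and HMG2, the HMG-CoA reductases that limit the early pathway, had log2 values of 0.07 and 0.05 (edgeR adjusted p = 0.568 and 0.682).

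In WT, aTC gave positive values for 8 of 10 early genes, at a median of 0.07, while 55.7% of all genes tested were positive. At an unadjusted p under 0.05 there were 0 early genes against 4.99% of all genes, and DESeq2 called 0 against 0.826%. For the deletion against WT in DMSO all 10 were negative, at a median of -0.09, while 50.4% of all genes tested were positive. Both tools called 0, against 0.219% of all genes by edgeR and 1.96% by DESeq2. ERG12 (-0.20) and ERG20, farnesyl diphosphate synthase (-0.14), were the 2 at an unadjusted p under 0.05, against 16.5% of all genes. These 2 comparisons of the deletion share the libraries of the deletion with DMSO. The early genes summed to 6016 and 5783 CPM in the deletion with aTC, 5298 and 5398 in the deletion with DMSO, 5756 and 5915 in WT with aTC, and 5738 and 5571 in WT with DMSO. The deletion with DMSO was lowest, without overlap. ERG12, mevalonate kinase, was the early gene called in the deletion against WT averaged over treatments (log2 -0.17, SE 0.0392, edgeR adjusted p = 0.015), and the call ended without either replicate of the deletion with DMSO or replicate 1 of the deletion with aTC (edgeR adjusted p up to 0.0842). In that averaged comparison edgeR called 21.2% of all genes tested, and ERG12 alone of the 10 early genes. DESeq2 called 2 of the 10 lower, against 23.3% of all genes. All 10 were negative, while 51.1% of all genes tested were positive. For aTC averaged over genotypes 9 of 10 were positive, against 51.3% of all genes. There edgeR called 0 and DESeq2 2 higher, against 1.31% and 3.71%. At an unadjusted p under 0.05 there were 7, all positive, against 18.9%. Whether early and late genes differ in response was not tested.

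**Figure D5:**
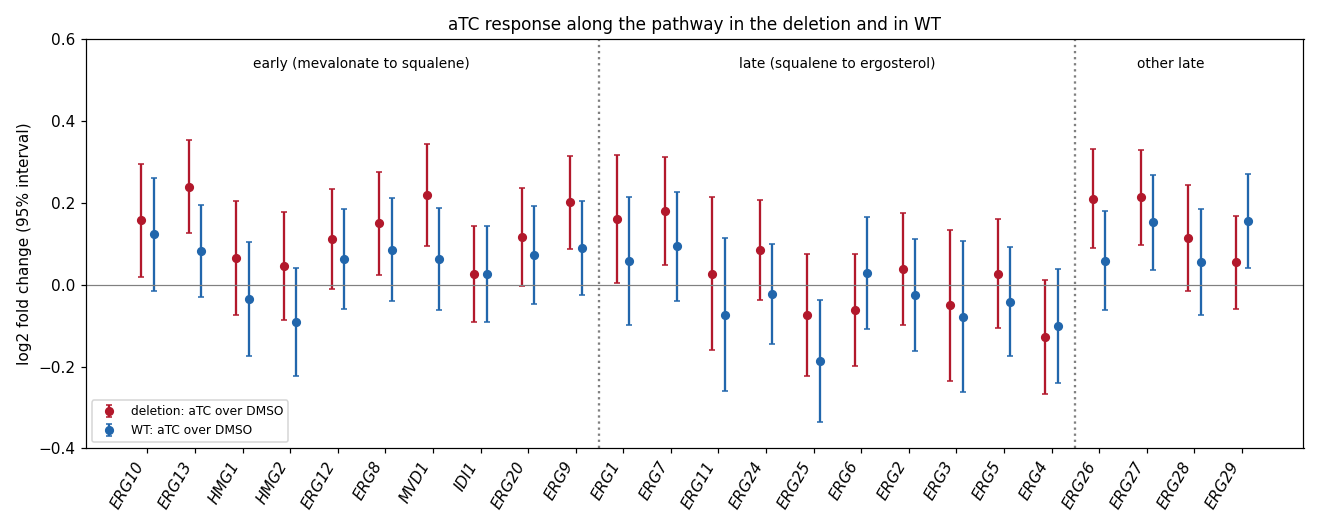
Log2 fold change with aTC (y axis, bars are 95% intervals) of 10 early, 10 late and 4 other late ergosterol genes in pathway order, in the deletion and in WT. In the deletion the early values run from 0.03 to 0.24 and the late ones from -0.13 to 0.18.

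Of the 4 late genes outside the 10, which act with ERG25 in C-4 demethylation or assist it, 4 of 4 had positive aTC values in the deletion and in WT. Of all genes tested, 51.1% were positive for aTC in the deletion and 55.7% in WT. In the deletion edgeR called 0 of the 4 and DESeq2 called 2 higher, against 0.506% and 6.69% of all genes. In WT both tools called 0, against 0.371% and 0.826%. At an unadjusted p under 0.05 there were 2 in each strain, against 22.6% of all genes in the deletion and 4.99% in WT. ERG27, the 3-keto reductase that also binds ERG7, had 161 and 159 CPM in the deletion with aTC, 138 and 137 in the deletion with DMSO, 153 and 159 in WT with aTC, and 144 and 137 in WT with DMSO. It was the one called with aTC averaged over genotypes (log2 0.18, SE 0.0373, edgeR adjusted p = 0.0424), and lost the call in 8 of 13 alternatives, with an edgeR adjusted p up to 0.265. In that averaged comparison edgeR called 1.31% of all genes tested. ERG27 shares 288 bases with YLR101C, so its count is uncertain. ERG26, the C-3 dehydrogenase, had 254 and 247 CPM in the deletion with aTC against 217 and 216 in the deletion with DMSO (log2 0.21, SE 0.0550, edgeR adjusted p = 0.0837). ERG28, the scaffold of the complex, gave 0.11 there (edgeR adjusted p = 0.27). For the deletion averaged over treatments edgeR called 1 of the 4, against 21.2% of all genes. ERG29 was called higher in the deletion averaged over treatments (log2 0.12, SE 0.0367, edgeR adjusted p = 0.0404), a call lost in 9 of 13 alternatives (edgeR adjusted p up to 0.156).

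The electron donors are NCP1, the P450 reductase that feeds ERG11, ERG5 and ERG1, CYB5, cytochrome b5, which feeds ERG25 and ERG3, its reductase CBR1, and DAP1, a haem protein that aids ERG11. None of these 4 was called in any of the 7 comparisons by edgeR or DESeq2. Of all genes tested, edgeR called 0.0169% to 21.2% in these comparisons and DESeq2 0.0169% to 23.3%. At an unadjusted p under 0.05 there was CYB5 (0.13) for aTC in the deletion, against 22.6% of all genes. For the deletion averaged over treatments there were DAP1 (0.15) and NCP1 (-0.09), against 37.3% of all genes. UPC2, the sterol-responsive activator, had 45.1 and 49.3 CPM in the deletion with aTC, 50.03 and 50.2 in the deletion with DMSO, 50.4 and 48.4 in WT with aTC, and 49.5 and 47.3 in WT with DMSO. ECM22, its paralogue, had log2 values of 0.10 and 0.09 for aTC in the deletion and in WT (edgeR adjusted p = 0.321 and 0.997). HAP1, the haem-responsive activator, and ROX1, a repressor of hypoxic genes, were not called, at 0.11 and -0.04 for the deletion in DMSO (edgeR adjusted p = 0.366 and 0.849). ROX1 in the deletion against WT in aTC gave -0.19 (edgeR adjusted p = 0.145).

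MOT3, a repressor of ergosterol and hypoxic genes, was the 1 regulator of 10 called in the deletion against WT in aTC, where 13.6% of all genes were called. It had 93.3 and 110.04 CPM in the deletion with aTC, 125 and 123 in the deletion with DMSO, 127 and 120.4 in WT with aTC, and 124 and 125 in WT with DMSO. Both libraries of the deletion with aTC were the lowest. MOT3 fell in the deletion against WT in aTC (log2 -0.28, SE 0.0722, edgeR adjusted p = 0.0289), and aTC in the deletion gave -0.28 (edgeR adjusted p = 0.0797). The call ended in 5 of 14 alternatives, with an edgeR adjusted p up to 0.173. Without replicate 1 of the deletion with aTC, the library at 93.3 CPM, MOT3 was at -0.17 and did not pass. TUP1, a corepressor present in the construct as well, was higher with aTC averaged over genotypes (log2 0.28, edgeR adjusted p = 0.0115), a call lost in 3 of 13 alternatives (edgeR adjusted p up to 0.131); native and construct reads cannot be told apart.

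The calls in the other lists are given beside the same background, 13.6% of all genes for the deletion against WT in aTC, 0.371% for aTC in WT and 21.2% for the deletion averaged over treatments; no list was tested against it. Of 17 genes of sterol transport and uptake, 0 were called for aTC in either strain by edgeR or DESeq2. Of all genes, edgeR called 0.506% and DESeq2 6.69% in the deletion, and 0.371% and 0.826% in WT. At an unadjusted p under 0.05 there were 0 in the deletion, against 22.6% of all genes. In WT there were 2 at that threshold, NCR1 (-0.13) and LAM5 (0.16), against 4.99%. In the deletion against WT in aTC edgeR called 1 higher and 1 lower. They were HES1, an oxysterol-binding protein homologue at 1.35 to 2.34 CPM over the libraries (log2 0.62, SE 0.174, edgeR adjusted p = 0.0407), and OSH1 of the same family (log2 -0.20, SE 0.058, edgeR adjusted p = 0.0441). Of 7 sterol ester genes, 0 were called in any comparison by either tool. SAY1, a sterol deacetylase, and TGL1, a steryl ester hydrolase, had an unadjusted p under 0.05 for aTC in the deletion (0.19 and 0.14). There 22.6% of all genes did. At that threshold there were also 2 ester genes for the deletion in aTC, 1 for the interaction and 2 for the deletion averaged over treatments. These values were positive, and the shares of all genes at that threshold were 32.5%, 7.23% and 37.3% in that order. Of 8 haem synthesis genes, 1 was called, HEM4, uroporphyrinogen synthase (log2 0.24 for the deletion in aTC, SE 0.0698, edgeR adjusted p = 0.0446). For aTC in the deletion 0 were called and 6 were positive, while 51.1% of all genes tested were positive. There 4 had an unadjusted p under 0.05, all positive, against 22.6% of all genes. For aTC averaged over genotypes 0 were called and 7 were positive, against 51.3% of all genes. At an unadjusted p under 0.05 there were 4 positive and 1 negative, against 18.9%. Of 12 hypoxic genes TIR1, a cell wall mannoprotein, rose with aTC in WT (log2 0.66, SE 0.114, edgeR adjusted p = 0.0343). TIR3, of the same family, fell in the deletion against WT in aTC (log2 -0.24, SE 0.0576, edgeR adjusted p = 0.0258). For aTC in the deletion edgeR called 0 of the 12 and DESeq2 1 lower, against 0.506% and 6.69% of all genes. At an unadjusted p under 0.05 there were 4 positive and 1 negative, against 22.6%. Averaged over treatments, KES1, another oxysterol-binding protein homologue, fell in the deletion (log2 -0.12, SE 0.0391, edgeR adjusted p = 0.0443), and DAN4, a cell wall mannoprotein, rose (log2 0.19, SE 0.0418, edgeR adjusted p = 0.0134). The KES1 call ended in 11 of 13 alternatives and the DAN4 call in 3. Also called there were TIR3 (log2 -0.20, edgeR adjusted p = 0.0105), HEM4 (0.18, edgeR adjusted p = 0.0278) and HES1 (0.43, edgeR adjusted p = 0.0314). Their calls ended in 2, 6 and 7 of 13 alternatives. For aTC averaged over genotypes, where 1.31% of all genes were called, TIR1 rose (log2 0.47, edgeR adjusted p = 0.0163) and TIR3 fell (-0.21, edgeR adjusted p = 0.0344). Those 2 calls ended in 4 and 5 of 13 alternatives. Each of the 5 edgeR calls in a pairwise comparison ended in at least 5 alternatives. OLE1, the fatty acid desaturase, which shares oxygen and iron use with ERG25 and ERG3, was not called, at log2 -0.02 and -0.05 for aTC in the deletion and in WT.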

How the data were processed

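The deposited values are raw read counts per gene. Per the submitters' processing notes reads were aligned with STAR, and per the file headers unique alignments were counted with featureCounts 2.0.1 over exons with no strand option, so antisense reads count and reads in overlaps are dropped. The kit was directional, per the labels. The STAR version and the genome build are not given in the sources used here. Symbols came from RefSeq's R64 table (5931 of 6663 identifiers).

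The test was edgeR's quasi-likelihood test (version 4.0.16, R 4.3.3), fitted to the counts of all 8 libraries (1 mean per group, TMM factors 0.963 to 1.05, default filter, 4 residual degrees of freedom), with Benjamini-Hochberg adjustment over 5932 genes and a threshold of 0.05. Standard errors are the fold change over the square root of F, and 95% intervals use them. The biological coefficient of variation was 5.44%. At 0 reads the limit is 3 reads, 0.0491 to 0.0603 CPM, for counting error only. The pipeline was tested on simulated data. Alternatives were DESeq2 1.42.0, 2 other scalings, no filter, a replicate block, a fit of only the libraries compared and leaving out each library.

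The members and lists were chosen with earlier results of these data known. The text names the members, PUS1, fixed enzymes, electron donors and regulators and, from each other list, up to 4 called genes per comparison or, where there were none, up to 2 with the smallest unadjusted p. CBR1, TUP1, OLE1, STE4, STE5 and RME1 are named outside that rule, a choice made with their values known.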

Additional observations from a re-analysis of the deposited data

Results flagged for a closer look

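PUS1, the gene deleted and induced by design, was the gene whose aTC response differed between the deletion and WT by the interaction test (edgeR quasi-likelihood adjusted p = 3.19e-11). It had 42829 and 51740 reads in the deletion with aTC, 2 and 4 in the deletion with DMSO, 68028 and 56790 in WT with aTC, and 11004 and 12139 in WT with DMSO. No late ergosterol gene met a rule for a closer look.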

How the results depend on the processing

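Recomputed under 14 alternatives, the 70 member values (10 genes in 7 comparisons) gave 950 values, of which 7 passed the threshold. Of the 950, 52 had the opposite sign to the value reported, for 32 of the 70, none of them called, and the largest of those reported values was 0.10 in size. A member value moved by at most 0.03 with all libraries kept and by at most 0.14 with a library left out. The number of members called became 1 for aTC in the deletion in a fit of only the libraries compared (ERG7), and 1 for the deletion averaged over treatments with upper-quartile scaling (ERG5), with DESeq2 (ERG11) and with the replicate block (ERG11). Leaving out each library in turn gave 0 to 1 members in the deletion against WT in aTC (ERG6 without replicate 2 of WT with aTC), 0 to 1 averaged over treatments (ERG11 without replicate 1 and ERG5 without replicate 2 of the deletion with aTC), and 0 in the other comparisons.

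The background moved more. For aTC in the deletion 30 genes were called, against 374 by DESeq2 and 702 in a fit of only the libraries compared; for aTC in WT 22, against 49 and 11; for the deletion in DMSO 13, against 116 and 261; for the deletion in aTC 808, against 369 in the fit of only the libraries compared; and for aTC averaged over genotypes 78, against 220 by DESeq2. The deletion in DMSO gave 21 genes with DESeq2 size factors, 27 with upper-quartile scaling, 29 with no filter and 28 with the replicate block. Leaving out a library gave 9 (without replicate 2 of the deletion with DMSO) to 549 genes (without replicate 2 of WT with aTC) for aTC in the deletion, 14 to 27 for aTC in WT, 1 to 106 for the deletion in DMSO, 3 to 1408 for the deletion in aTC, 1 to 175 for the interaction, 20 to 551 for aTC averaged over genotypes and 99 to 1746 for the deletion averaged over treatments. The causes were not tested. A library left out leaves 1 sample in its group, assumed to vary like the others.

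Replicate differences correlated between groups at -0.156 to 0.143 over 6 pairs of groups. Values this weak and of both signs showed no clear pairing by replicate number, but with so few libraries they cannot exclude it. With 2 libraries a group, the intervals of the late ergosterol genes leave small changes in either direction undecided.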
